A study of Mus musculus with 4 samples.

Results

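The expression of 10 genes that build or carry selectin ligands was followed in mouse CD4 T cells cultured under T follicular helper conditions. They were picked by symbol from the deposited gene count table, which lists 52636 genes, and all 10 were found there under 1 gene ID each. The set holds Galnt14, C1galt1 and Gcnt1, which start, extend and branch mucin-type O-glycans, the sialyltransferase genes St3gal1, St3gal4 and St3gal6, the fucosyltransferase genes Fut4 and Fut7, and the carrier protein genes Selplg and Spn. The members were chosen with results of this same comparison known. Their group differences are therefore given as a description, with no p-value. How many of them a fit over all genes calls is stated beside the share it calls of all genes, as a description too. All 10 passed the filter on low counts.

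The data were RNA-seq counts from 4 libraries, in 2 of which the label gave E4BP4-cKO and in 2 wild-type as the genotype. Both groups came from naive CD4 T cells of C57BL/6 spleens, cultured for 3 days with IL-6 and IL-21 and with antibodies against IFN-γ, IL-4 and TGF-β. The gene Nfil3 encodes the transcription factor E4BP4, and the labels give no Cre driver, deleted exon, sex or age. Nor do they tell if replicates were independent animals or cultures, so p-values measure only the spread between these libraries, which may be technical. The series compared cells with and without E4BP4 to learn its part in T follicular helper differentiation.

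Nfil3 itself ran against the labels, at 179 and 216 CPM (counts-per-million, the count scaled by library size) in the E4BP4-cKO-labelled libraries, against 13.3 and 14.8 CPM in the wild-type-labelled libraries. No direction below is therefore to be read as the effect of losing E4BP4. Library totals lay between 19057077 and 26579592 counts, so that 1 count was worth between 0.0385 and 0.0546 CPM. The summed CPM of 8 T cell marker genes was 3399 and 3749 in the E4BP4-cKO-labelled libraries, against 3820 and 3767 in the wild-type-labelled ones, with 0 of the 8 called in either direction (called here means an adjusted p under 0.05 by edgeR's quasi-likelihood test). Single T cell markers lay on both sides. Cd3d, Cd3g and Cd4 were higher and Cd5, Cd28 and Lck lower in the E4BP4-cKO-labelled libraries without overlap, while Cd3e and Trac overlapped. Non-overlap held for 68.2% of all tested genes. Cd5 had 721 and 478 CPM against 1032 and 947 CPM. Markers of other cells were present and differed between the groups. The sum of 8 mast cell and basophil markers was 1902 and 1438 CPM against 494 and 103 CPM (Cpa3, Mcpt4 and Kit of the 8 called higher), and that of 8 myeloid markers 163 and 109 CPM against 19.1 and 6.59 CPM (7 of 8 called higher, all but Itgam). The sum of 8 CD8 and NK cell markers was 329 and 469 CPM against 80.6 and 159 CPM (Klrd1 and Prf1 of 6 tested genes called higher). Prf1 alone made up 262 and 395 CPM against 37.3 and 91.8 CPM of that sum, while Cd8b1 overlapped between the groups, Eomes was lower at a mean of 18.1 CPM against 34.7 CPM, and Ncr1 had 0 counts throughout. The sum of 8 B cell markers was 85.4 and 43.6 CPM against 383 and 379 CPM (Ighm and Igkc of the 8 called lower). Of that sum, Ighm made up 43.4 and 23.3 CPM against 242 and 243 CPM, and Igkc 19.2 and 8.24 CPM against 99.6 and 106 CPM. Cd22 alone of the 8 lay higher, at 5.50 and 4.86 CPM against 3.98 and 3.73 CPM, and was not called. Their part in the results below was not tested. In such bulk samples fewer cells of a type and less RNA per cell cannot be told apart.

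Selectins are lectins on leukocytes, endothelium and platelets that slow leukocytes along the vessel wall by binding sugars on other cells. On T cells the main sugar structure is sialyl Lewis x, carried on branched O-glycans of the protein PSGL-1. GalNAc transferases attach the first sugar to serine or threonine, C1GALT1 adds galactose to give core 1, and GCNT1 adds N-acetylglucosamine to give the core 2 branch. Sialyltransferases of the ST3Gal family then cap galactose with sialic acid, and FUT7 and FUT4 add fucose. Naive T cells lack most of these structures and gain them after activation.

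The stretch before the transcription start is shown for the members with the largest difference in each direction, Gcnt1 and Galnt14, and for Fut7, whose groups overlapped. The sequences are from RefSeq on GRCm38.p6, 250 bases each, 5′ to 3′ on the gene's strand, and capitals mark CG dinucleotides. The Gcnt1 stretch lies at chr19:17356668-17356917 on the minus strand, the Galnt14 stretch at chr17:73710452-73710701 on the minus strand, and the Fut7 stretch at chr2:25422992-25423241 on the plus strand.
Gcnt1: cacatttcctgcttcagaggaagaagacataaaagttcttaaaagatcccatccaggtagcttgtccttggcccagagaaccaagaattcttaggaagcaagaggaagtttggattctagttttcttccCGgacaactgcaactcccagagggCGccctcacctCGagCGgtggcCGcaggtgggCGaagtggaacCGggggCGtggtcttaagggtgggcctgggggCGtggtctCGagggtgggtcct
Galnt14: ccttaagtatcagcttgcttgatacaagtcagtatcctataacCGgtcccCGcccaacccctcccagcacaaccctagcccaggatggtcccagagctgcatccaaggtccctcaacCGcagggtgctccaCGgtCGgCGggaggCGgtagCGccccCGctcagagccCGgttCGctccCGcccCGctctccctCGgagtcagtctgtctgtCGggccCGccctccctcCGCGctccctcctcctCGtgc
Fut7: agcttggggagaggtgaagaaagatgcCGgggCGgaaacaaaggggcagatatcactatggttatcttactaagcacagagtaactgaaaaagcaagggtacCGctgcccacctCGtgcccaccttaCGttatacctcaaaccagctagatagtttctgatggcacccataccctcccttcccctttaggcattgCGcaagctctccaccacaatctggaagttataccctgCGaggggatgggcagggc
CG dinucleotides numbered 10 before Gcnt1, 19 before Galnt14 and 7 before Fut7, against a median of 6 over 32851 RefSeq promoters. The G and C content of these stretches was 55.6%, 66.4% and 52.4%, against a median of 52.4%. Gcnt1 has 3 RefSeq starts, and the one shown coincides with the 5′ end of the counted gene. The stretches at the other Gcnt1 starts held 2 CG dinucleotides each. RefSeq promoters of 300 bases (250 before and 50 after the start) were matched for 8 of the 10 members, 12 promoters in all, and St3gal1 and Selplg are named only. They were searched on both strands for the D-box letters bound by E4BP4 and related factors, TTATGTAA and TTACGTAA, for the STAT letters TTCNNNGAA and for the T-box letters AGGTGTGA. None of the 12 held any of these letters. Of all 32851 promoters, 1.06% held either D-box form, 8.30% the STAT letters and 1.28% the T-box letters. At such shares 12 promoters are too few for the lack of a match to be read as a trait of these genes.

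Among the genes that start and branch O-glycans, Gcnt1 was several times higher in the E4BP4-cKO-labelled libraries, C1galt1 was slightly higher and Galnt14 was close to absent there. Gcnt1 (ENSMUSG00000038843, chromosome 19, 17326141 to 17356667 in mm10) encodes the enzyme that makes the core 2 branch. It had 67.3 and 64.8 CPM in the E4BP4-cKO-labelled libraries, against 10.1 and 7.73 CPM in the wild-type-labelled ones. The groups did not overlap, as was so for 68.2% of all tested genes, and the ratio of any E4BP4-cKO-labelled to any wild-type-labelled library lay between 6.44 and 8.70. The fitted log2 fold change of Gcnt1 was 2.89 (SE 0.17), and with 1 library left out at a time it ran from 2.71 to 3.09. Of the tested genes, 98.2% had a lower log2 fold change than Gcnt1.

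**Figure D1:**
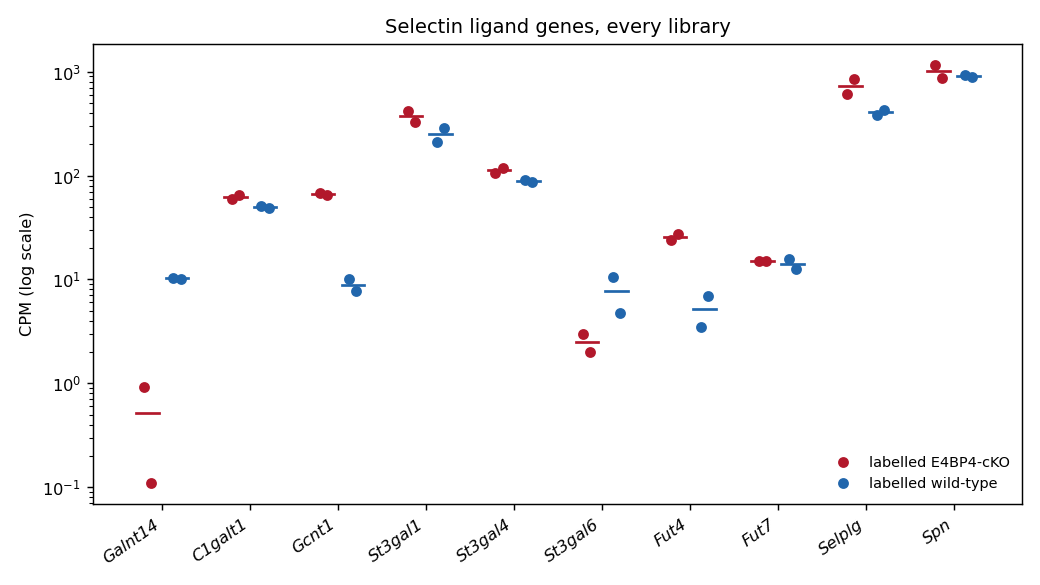
CPM of the 10 genes in each library on a log scale, with E4BP4-cKO-labelled libraries in red on the left and the wild-type-labelled ones in blue on the right of each pair, and short lines at the group means. Gcnt1 and Fut4 stand well apart upwards and Galnt14 downwards, while Fut7 and Spn overlap.

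C1galt1 (chromosome 6, 7844842 to 7875687), the core 1 galactosyltransferase whose product GCNT1 needs, had 59.4 and 65.5 CPM in the E4BP4-cKO-labelled libraries, against 50.9 and 48.3 CPM in the wild-type-labelled ones. The groups did not overlap but lay close, with a log2 fold change of 0.33 (SE 0.11). The RNA of the 2 enzymes thus stood in another ratio in each group. Per base of gene length (RPKM, the CPM divided by the deposited gene length in kilobases), Gcnt1 RNA stood at 1.24 and 1.08 times C1galt1 RNA in the E4BP4-cKO-labelled libraries, against 0.216 and 0.175 times in the wild-type-labelled ones. Galnt14 (chromosome 17, 73493228 to 73710453), one of the GalNAc transferases, had 24 and 2 counts in the E4BP4-cKO-labelled libraries, against 228 and 256 counts in the wild-type-labelled ones. That is 0.923 and 0.109 CPM against 10.4 and 10.0 CPM, with a log2 fold change of -4.20 (SE 0.70). Both E4BP4-cKO-labelled libraries were far below the others, but they differed 8.45-fold between themselves, and the 2 counts of the lower one lie under a floor of 3 counts, or 0.164 CPM. Without E4BP4-cKO replicate 1 the value was -6.48, and without E4BP4-cKO replicate 2 it was -3.45.

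Galnt14 was a small part of the RNA for its enzyme family in every library. It made up 0.145% and 0.0164% of the summed RPKM of 19 GalNAc transferase genes in the E4BP4-cKO-labelled libraries, against 1.80% and 1.91% in the wild-type-labelled ones. The sum itself was 119 and 124 RPKM against 108 and 98.2 RPKM. Galnt6 held the largest share, 38.2% and 42.5% in the E4BP4-cKO-labelled libraries, against 33.0% and 31.4% in the wild-type-labelled ones. Galnt1 was next, with 25.9% and 24.1% against 20.6% and 23.6%.

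The sialyltransferase genes differed in direction, and none of them was called. St3gal1 (chromosome 15, 67102875 to 67113992), which caps core 1 and so competes with GCNT1 for the same acceptor, had 418 and 329 CPM in the E4BP4-cKO-labelled libraries, against 210 and 289 CPM in the wild-type-labelled ones. Its groups lay side by side without overlap, the closest pair differing 1.14-fold (log2 fold change 0.58, SE 0.21). St3gal4 (chromosome 9, 35046576 to 35119268), a main contributor of sialic acid to selectin ligands in mouse leukocytes, had 106 and 119 CPM against 90.3 and 86.4 CPM (log2 fold change 0.35, SE 0.11). St3gal6 (chromosome 16, 58468125 to 58524243), which shares that task with St3gal4 in mice, was the low member of the family, with 77 and 37 counts against 233 and 121 counts. This corresponded to 2.96 and 2.02 CPM against 10.7 and 4.75 CPM, and a log2 fold change of -1.61 (SE 0.47). St3gal1 and St3gal4 thus lay above and St3gal6 below in the E4BP4-cKO-labelled libraries, without overlap. Over all tested genes 68.2% did not overlap, 34.6% above and 33.6% below. The wild-type-labelled libraries differed 2.24-fold in St3gal6, and the log2 fold change was -0.93 without wild-type replicate 1 and -2.09 without wild-type replicate 2.

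Part of these counts cannot be assigned to a strand, since no source used here gives the strand setting. Of the exon bases of St3gal6, 26.0% are also covered by Dcbld2 on the other strand, which had 4.31 and 2.95 CPM in the E4BP4-cKO-labelled libraries, against 4.98 and 4.43 CPM in the wild-type-labelled ones. Of the exon bases of St3gal4, 14.1% are shared with the antisense gene 4930581F22Rik, at 28.1 and 33.2 CPM against 24.1 and 24.3 CPM. For Galnt14 the shared part is 0.610%, and for the other 7 members no exon base is shared in GENCODE M21. Per base of length, St3gal1 and St3gal4 made up nearly all RNA of the 3 genes, while St3gal6 gave 0.403% and 0.310% of their sum in the E4BP4-cKO-labelled libraries, against 2.34% and 0.884% in the wild-type-labelled ones.

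The fucosyltransferase genes differed from each other in behaviour, Fut4 being higher in the E4BP4-cKO-labelled libraries and Fut7 overlapping between the groups. Fut4 (ENSMUSG00000049307, chromosome 9, 14748320 to 14752393), which makes Lewis x and adds to selectin ligand synthesis, had 23.9 and 27.4 CPM in those libraries, against 3.47 and 6.99 CPM in the wild-type-labelled libraries. The ratio between libraries of the 2 groups lay between 3.42 and 7.89 (log2 fold change 2.29, SE 0.35). The wild-type-labelled libraries differed 2.01-fold in Fut4, and the log2 fold change was 1.87 without wild-type replicate 1 and 2.88 without wild-type replicate 2. Fut7 (chromosome 2, 25423267 to 25426374), the enzyme on which most selectin ligands of mouse T cells depend, had 15.07 and 15.07 CPM against 15.7 and 12.7 CPM. Its groups overlapped, and its log2 fold change of 0.09 was smaller than its SE of 0.19. Per base of length, Fut4 made up 47.8% and 51.3% of the RNA of both genes in the E4BP4-cKO-labelled libraries, against 11.3% and 24.2% in the wild-type-labelled ones. The summed level of Fut4 and Fut7 was 12.3 and 13.1 RPKM against 7.53 and 7.10 RPKM.

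**Figure D2:**
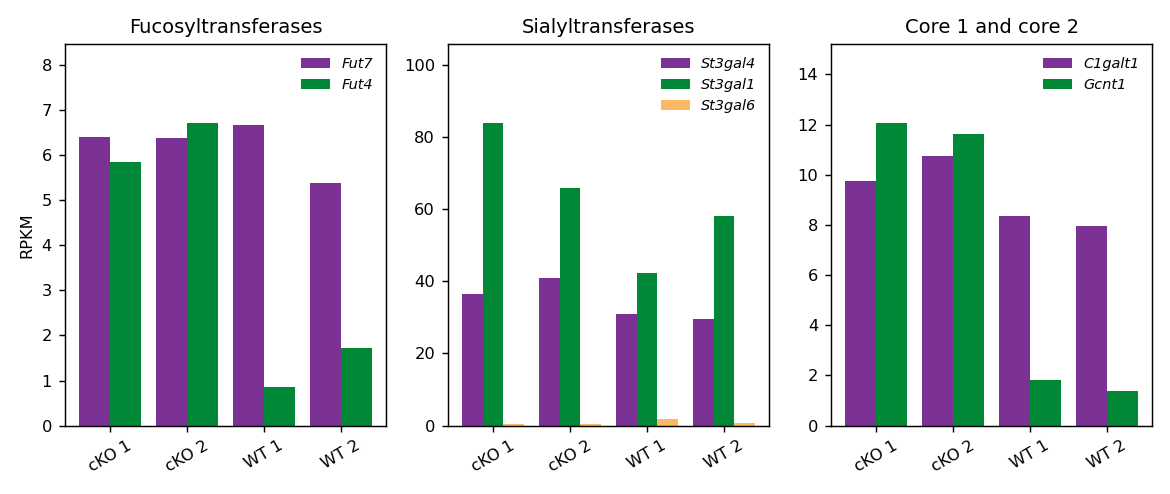
RPKM in each library (cKO and WT stand for the labels E4BP4-cKO and wild-type) of the fucosyltransferase, sialyltransferase and core 1 and core 2 genes, as bars from 0. Fut4 and Gcnt1 reach the height of Fut7 and C1galt1 in the E4BP4-cKO-labelled libraries and stay far below them in the wild-type-labelled ones.

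The carrier protein genes were the most abundant of the 10. Selplg (ENSMUSG00000048163, chromosome 5, 113818536 to 113832644) encodes PSGL-1, the main ligand of P-selectin. It had 607 and 842 CPM in the E4BP4-cKO-labelled libraries, against 385 and 425 CPM in the wild-type-labelled ones, with a log2 fold change of 0.84 (SE 0.19). The groups did not overlap, the closest pair differing 1.43-fold, and the value ran from 0.60 to 1.05 with 1 library left out. Spn (chromosome 7, 127132232 to 127137823) encodes CD43, a heavily O-glycosylated protein that can carry E-selectin ligands on activated T cells. It had 1161 and 866 CPM against 920 and 897 CPM, and the groups overlapped (log2 fold change 0.16, SE 0.18). Without E4BP4-cKO replicate 1 its log2 fold change was -0.07, so that its sign turned. Per base of length, Selplg RNA stood at 0.573 and 1.07 times Spn RNA in the E4BP4-cKO-labelled libraries, against 0.458 and 0.519 times in the wild-type-labelled ones.

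**Figure D3:**
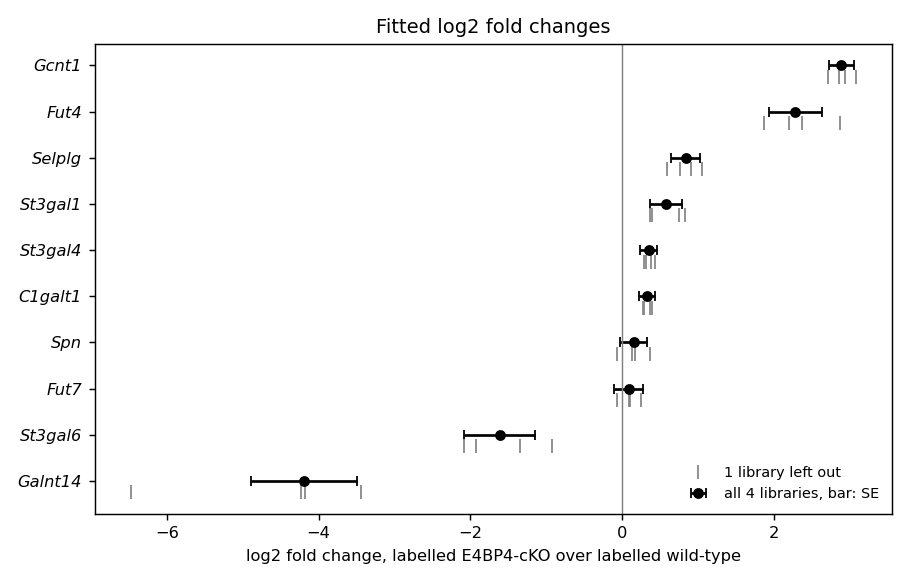
Fitted log2 fold change of each gene, labelled E4BP4-cKO over labelled wild-type, with bars of 1 SE, and grey ticks for the same value with 1 library left out. Gcnt1 at 2.89 and Fut4 at 2.29 lie highest and Galnt14 at -4.20 lowest, and ticks of Spn and Fut7 fall on both sides of 0.

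Set in order of RPKM, the middle of the list changed places between the groups. In the E4BP4-cKO-labelled libraries the levels were 217 ± 44.6 for Spn, 170 ± 38.9 for Selplg, 74.9 ± 12.7 for St3gal1, 38.6 ± 3.09 for St3gal4, 11.9 ± 0.312 for Gcnt1, 10.3 ± 0.703 for C1galt1, 6.40 ± 0.00202 for Fut7, 6.29 ± 0.612 for Fut4, 0.410 ± 0.109 for St3gal6 and 0.0965 ± 0.108 for Galnt14 (mean RPKM ± SD, n = 2). In the wild-type-labelled libraries they were 194 ± 3.49 for Spn, 94.7 ± 6.64 for Selplg, 50.1 ± 11.2 for St3gal1, 30.2 ± 0.957 for St3gal4, 8.14 ± 0.294 for C1galt1, 6.03 ± 0.916 for Fut7, 1.91 ± 0.0498 for Galnt14, 1.60 ± 0.295 for Gcnt1, 1.28 ± 0.609 for Fut4 and 1.27 ± 0.686 for St3gal6 (mean RPKM ± SD, n = 2). Gcnt1 thus ranked 5 in the E4BP4-cKO-labelled libraries and 8 in the wild-type-labelled ones. Neighbours whose library values overlapped were Spn with Selplg and Fut7 with Fut4 in the E4BP4-cKO-labelled libraries, and Gcnt1 with Fut4 and Fut4 with St3gal6 in the wild-type-labelled ones.

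Of the 10 genes, 8 had groups that did not overlap, 6 above and 2 below in the E4BP4-cKO-labelled libraries. Over the 15503 tested genes 68.2% did not overlap, 34.6% above and 33.6% below. By edgeR's quasi-likelihood test with Benjamini-Hochberg adjustment, 3 were past an adjusted p of 0.05 upwards (Gcnt1, Fut4 and Selplg) and 1 downwards (Galnt14), where 7.68% and 6.53% of tested genes were, together 14.2%. These counts follow from how the genes were chosen and are read no further. Upwards the count was 1 (Gcnt1) without E4BP4-cKO replicate 2 and 2 (Gcnt1 and Fut4) without either wild-type-labelled library, and downwards it was 2 (Galnt14 and St3gal6) without wild-type replicate 2. Over all genes the split of 1191 higher and 1013 lower became 1033 and 1636 when libraries were scaled to their totals, where Gcnt1 and Fut4 were called higher and Galnt14 lower. The median log2 fold change of the 10 was 0.34, beside 0.02 over all tested genes.

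Marker sums of other cell types moved with these differences, and within the wild-type-labelled libraries they could be set beside single genes. The mast cell and basophil sum was 4.82 times higher in wild-type replicate 1 than in wild-type replicate 2, and the myeloid sum 2.90 times higher. Gcnt1 was 1.30 times higher in that library. Fut4 was lower in it, at 3.47 CPM in wild-type replicate 1 and 6.99 CPM in wild-type replicate 2. The CD8 and NK sum was lower in it too, at 80.6 and 159 CPM, a ratio of 0.505. Prf1 alone made up 37.3 and 91.8 CPM of that sum. The part of these cell types in Gcnt1, Fut4, Galnt14 and Selplg was not tested. Galnt14, at 10.4 and 10.0 CPM, and Selplg, at 385 and 425 CPM, differed little between these libraries. The B cell sum, mostly Ighm and Igkc, was like Galnt14 lower in the E4BP4-cKO-labelled libraries. It was 383 and 379 CPM in wild-type replicates 1 and 2, and its part in Galnt14 was not tested either.

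**Figure D4:**
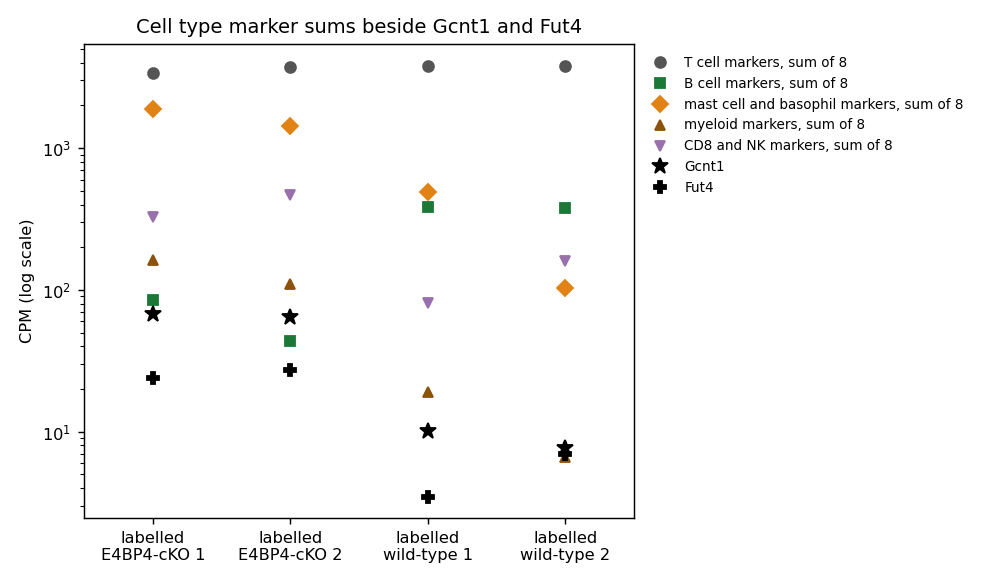
Summed CPM of 8 marker genes for each of 5 cell types in each library, on a log scale, with Gcnt1 as stars and Fut4 as plus signs. T cell markers lie between 3399 and 3820 CPM in every library, the mast cell, myeloid, and CD8 and NK sums are higher and the B cell sum is lower in the E4BP4-cKO-labelled libraries, the CD8 and NK sum being mostly Prf1 there.

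The genes whose profile over the 4 libraries was nearest to that of Gcnt1, by Euclidean distance between centred log2 CPM, were Adamtsl1 (distance 0.17), Furin (0.21), Cd34 (0.23), Clnk (0.23) and Cybb (0.23). Furin encodes a proprotein convertase and had 866 and 678 CPM in the E4BP4-cKO-labelled libraries, against 119 and 90.0 CPM in the wild-type-labelled ones. Clnk encodes an adaptor of immune receptor signalling that is used in mast cells, and had 8.77 and 8.57 CPM against 1.46 and 1.14 CPM. Cybb encodes the phagocyte NADPH oxidase subunit and had 34.8 and 31.6 CPM against 4.39 and 4.20 CPM. Among the other 9 genes of the set, Fut4 was nearest to Gcnt1, at a distance of 1.12, followed by Selplg at 2.13. With 4 libraries in 2 groups such a distance mainly reflects the size of the group difference.

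Beyond the 10 genes, 101 further genes of O-glycan and selectin ligand synthesis were listed, and 77 of them passed the filter. Of these 77, 13 rose and 6 fell in the E4BP4-cKO-labelled libraries at an adjusted p under 0.05 by edgeR's quasi-likelihood test, or 16.9% and 7.79%, beside 7.68% and 6.53% of all tested genes. The median log2 fold change of the 77 was 0.21. Like the members, these lists and the regulators read last were chosen with earlier results of these data known. Their counts, shares and adjusted p-values are therefore given as a description too, and the shares are read no further. The counts by role below stand beside the same 7.68% and 6.53% of all tested genes. Without E4BP4-cKO replicate 2 only 1 rose (Cd34) and 1 fell (Tpst1), leaving out wild-type replicate 1 gave 7 and 3, and without E4BP4-cKO replicate 1 the counts were 8 and 5.

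**Figure D5:**
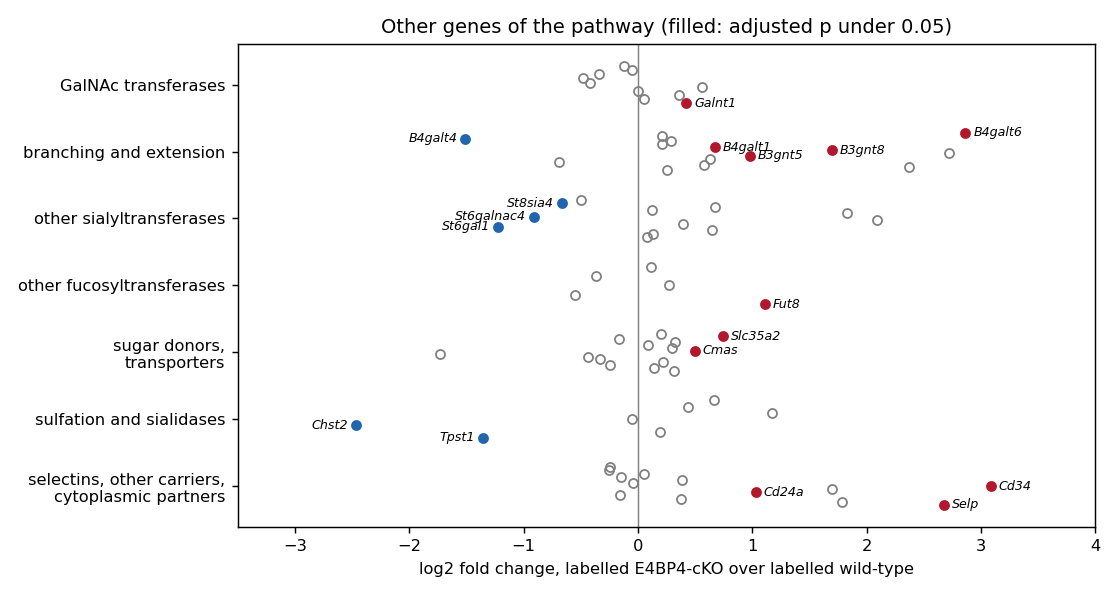
Log2 fold change, labelled E4BP4-cKO over labelled wild-type, of further tested pathway genes by role, filled red where higher and blue where lower at an adjusted p under 0.05 (edgeR). Branching and extension genes and selectins lie mostly to the right, and Chst2, Tpst1, St6gal1 and B4galt4 to the left.

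Extension genes, which lengthen the core 2 branch into the N-acetyllactosamine chains that fucosyltransferases use, rose in part. Of 14 tested genes of branching and extension, 4 rose and 1 fell. B4galt1, a main galactosyltransferase of these chains, stood at 147 ± 8.69 CPM in the E4BP4-cKO-labelled libraries, against 92.0 ± 0.692 CPM in the wild-type-labelled ones (SD, n = 2 each, log2 fold change 0.68, SE 0.10, edgeR adjusted p = 0.0274). B3gnt8 and B3gnt5, which add N-acetylglucosamine to glycoproteins and to glycolipids, had log2 fold changes of 1.69 (edgeR adjusted p = 0.0244) and 0.98 (edgeR adjusted p = 0.0472). B4galt6, a glycolipid galactosyltransferase, was low at 1.57 ± 0.0612 CPM against 0.212 ± 0.0229 CPM (log2 fold change 2.86, edgeR adjusted p = 0.0270). B4galt4 fell to 2.25 ± 0.0216 CPM, against 6.42 ± 0.354 CPM in the wild-type-labelled libraries (log2 fold change -1.51, edgeR adjusted p = 0.0301). C1galt1c1, the chaperone that C1GALT1 needs, averaged 11.3 ± 0.895 against 9.48 ± 1.47 CPM and was not called (edgeR adjusted p = 0.430). It was named after its values were seen. The calls of B4galt1, B3gnt8, B3gnt5, B4galt6 and B4galt4 were all lost when E4BP4-cKO replicate 2 was left out. They were lost as well on leaving out wild-type replicate 1, where Gcnt2 was called instead. B4galt6 was not called whichever library was left out. B3gnt5 also lost its call when E4BP4-cKO replicate 1 was dropped, and under scaling to total library size. Dropping wild-type replicate 2 also ended the calls of B4galt1 and B4galt4.

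Of 12 other sialyltransferase genes tested, 3 fell and 0 rose. St6gal1, which caps N-glycans, stood at 17.1 ± 3.23 CPM in the E4BP4-cKO-labelled libraries, against 40.1 ± 0.409 CPM in the wild-type-labelled ones (log2 fold change -1.22, SE 0.17, edgeR adjusted p = 0.0263). St6galnac4, which adds a further sialic acid to sialylated core 1, averaged 49.7 ± 11.5 against 93.4 ± 10.4 CPM (log2 fold change -0.91, SE 0.19, edgeR adjusted p = 0.0386). Per base of length, Gcnt1 RNA was 1.35 and 1.81 times that of St6galnac4 in the E4BP4-cKO-labelled libraries, against 0.116 and 0.105 times in the wild-type-labelled ones. Gcnt1 RNA stayed below that of St3gal1 in every library. It was 0.144 and 0.176 times as high in the E4BP4-cKO-labelled libraries, against 0.0428 and 0.0239 times in the wild-type-labelled ones. St8sia4, a polysialyltransferase gene, fell by 0.66 on the log2 scale (SE 0.13, edgeR adjusted p = 0.0351). Its call was lost whichever library was left out. St6galnac5, at 0.835 ± 0.178 against 0.235 ± 0.0552 CPM, was not called (edgeR adjusted p = 0.0619). Without E4BP4-cKO replicate 2 none of the 12 was called, and without wild-type replicate 1 St6gal1 was the one that fell and St6galnac3 rose.

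Among the other fucosyltransferases Fut8, which fucosylates the core of N-glycans and makes no selectin ligand, was the one of 5 tested genes that rose, to 79.4 ± 8.02 CPM against 36.8 ± 13.4 CPM (log2 fold change 1.11, SE 0.26, edgeR adjusted p = 0.0476). It was not called without either E4BP4-cKO-labelled library. Of the next 3 by p, Pofut1, Fut11 and Fut10 had log2 fold changes of -0.37, 0.27 and -0.55 and were not called. Fut9, the other enzyme of Lewis x synthesis, had 0 and 0 counts in the E4BP4-cKO-labelled libraries, against 1 and 0 counts in the wild-type-labelled ones, and was named after its values were seen. Among GalNAc transferases Galnt1 was called higher, by a log2 fold change of 0.42 (SE 0.10, edgeR adjusted p = 0.0495), and this call was lost whichever of the 4 libraries was left out, in the fit blocked on replicate number (edgeR adjusted p = 0.0588), with limma-voom, and under scaling to total library size (edgeR adjusted p = 0.0740). Galnt6 had a log2 fold change of 0.56 (edgeR adjusted p = 0.0512), Galnt3 0.36 and Galnt7 -0.42, none of them called.

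Of 15 genes that make or import sugar donors, 3 rose and 0 fell, among them Slc35a2 and Cmas. Slc35a2, a nucleotide sugar transporter of the Golgi, stood at 53.7 ± 5.75 CPM in the E4BP4-cKO-labelled libraries, against 32.1 ± 4.28 CPM in the wild-type-labelled ones (log2 fold change 0.74, SE 0.15, edgeR adjusted p = 0.0379). Cmas, which activates sialic acid, had one of 0.50 (SE 0.11, edgeR adjusted p = 0.0459) and was not called with the replicate number as a block. Nanp, at 0.403 ± 0.0289 against 1.36 ± 0.535 CPM, was not called (edgeR adjusted p = 0.0664). Leaving out E4BP4-cKO replicate 2 left 0 of the 15 called, as did leaving out wild-type replicate 1.

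Sulfation genes included the largest fall among the 6 genes that fell. Chst2, a sulfotransferase that acts on N-acetylglucosamine of selectin ligands, had 51.9 and 29.8 CPM in the E4BP4-cKO-labelled libraries, against 305 and 147 CPM in the wild-type-labelled ones (log2 fold change -2.46, SE 0.43, edgeR adjusted p = 0.0311). Tpst1, one of the enzymes that sulfate tyrosines, as PSGL-1 needs for binding P-selectin, averaged 18.1 ± 3.40 against 46.5 ± 1.99 CPM (log2 fold change -1.35, SE 0.17, edgeR adjusted p = 0.0224). Tpst2, the second tyrosine sulfotransferase, was more abundant at 87.7 ± 2.61 against 76.6 ± 6.44 CPM and was not called (edgeR adjusted p = 0.249). It was named after its values were seen. Neu1, at a log2 fold change of 0.44, and Papss2, at 1.18, were not called either, so that 2 of 7 tested genes fell and 0 rose. Chst2 was not called without E4BP4-cKO replicate 2.

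Of 14 tested genes of selectins, further carriers and their cytoplasmic partners, 4 rose and 0 fell, among them Selp, Cd34 and Cd24a. Selp, which encodes P-selectin of platelets and endothelium, had 56.0 and 45.0 CPM in the E4BP4-cKO-labelled libraries, against 4.57 and 11.1 CPM in the wild-type-labelled ones (log2 fold change 2.68, SE 0.42, edgeR adjusted p = 0.0286). Cd34, a sialomucin gene also expressed by mast cells, averaged 18.0 ± 1.07 against 2.12 ± 0.617 CPM (log2 fold change 3.09, SE 0.27, edgeR adjusted p = 0.0159). Cd24a, a small mucin-like P-selectin ligand, had a log2 fold change of 1.03 (SE 0.22, edgeR adjusted p = 0.0421). The mast cell and basophil sum was at least 2.91 times higher in each E4BP4-cKO-labelled library than in either other, and its part in Selp and Cd34 was not tested. Cd24a was not called without either E4BP4-cKO-labelled library or without wild-type replicate 1, and Selp not without E4BP4-cKO replicate 2.

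Finally, 8 genes reported in T cells to act on core 2 and fucosyltransferase genes were read, of which 2 rose and 2 fell. Tbx21 encodes T-bet, a factor reported to act on selectin ligand genes in T helper 1 cells. It stood at 93.1 ± 18.4 CPM in the E4BP4-cKO-labelled libraries, against 162 ± 24.7 CPM in the wild-type-labelled ones (log2 fold change -0.80, SE 0.18, edgeR adjusted p = 0.0473). The part of these 8 genes in Gcnt1 or any other member was not tested. The IL-12 receptor genes Il12rb2 and Il12rb1 rose by log2 fold changes of 1.19 (edgeR adjusted p = 0.0436) and 0.48 (edgeR adjusted p = 0.0399), while Stat4, named after its values were seen, had one of 0.02. Klf2, a factor that maintains trafficking receptors of naive T cells, fell to 11.2 ± 2.29 CPM, against 51.6 ± 23.4 CPM (log2 fold change -2.21, SE 0.36, edgeR adjusted p = 0.0291). Without E4BP4-cKO replicate 2, 0 of the 8 were called, and without wild-type replicate 1 only Klf2 was. Without E4BP4-cKO replicate 1, Klf2 was not called. Il12rb1 was not called whichever library was left out, nor under scaling to total library size.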

How the data were processed

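The deposited table holds raw read counts per Ensembl gene for 4 libraries. HISAT2, featureCounts, CASAVA and the build mm10 appear in the submitters' processing notes. No source used here gives versions, annotation release, strand setting or handling of multi-mapping, so overlapping genes cannot be separated. Columns were matched to samples by title, groups taken from the labelled genotype. Gene lengths are those the authors deposited.

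CPM used TMM factors (0.962 to 1.04). Genes were filtered with filterByExpr (15503 of 28039 with a count) and tested with edgeR 4.0.16 (glmQLFit, glmQLFTest) in R 4.3.3, two-sided, Benjamini-Hochberg over all tested genes, without covariates. DESeq2 1.42.0 and limma 3.58.1 (voom) served as alternatives. An exact permutation test of 2 against 2 cannot go below 0.333. SE values were derived from the fold change and F. The scripts were tested on simulated data. 2 listed symbols appeared on 2 IDs each (the one with more counts was used) and 3 under an older symbol.

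Members and lists were chosen with earlier results of these data known. Named genes were all members, up to 4 genes with the lowest p from each list, and genes in counts of 5 or fewer. For likeness to Gcnt1, the 5 nearest protein-coding genes of at least 1 CPM were named, by log2 CPM (prior count 2). Some genes within the printed counts are not reported here by name.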

Additional observations from a re-analysis of the deposited data

How the results depend on the processing

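In edgeR fits with another scaling or filter, with the replicate number as a block, with limma-voom and with DESeq2, the log2 fold changes of all 10 genes stayed within 1 SE of the reported value. With 1 library left out, the signs of Spn (-0.07) and Fut7 (-0.06) turned, and values of Gcnt1, Fut4, Galnt14, St3gal1, St3gal6, Selplg and Spn moved by over 1 SE. St3gal1 was also called higher with DESeq2 and without a filter (4 of 10 in place of 3), and St3gal6 lower in both and with the replicate block (2 in place of 1). Over all genes each of these settings also called more in both directions, as given in the next paragraph, so these added calls are read no further. Of the 33 further genes that the naming rule picked from the pathway and regulator lists, 0 changed sign in any setting. Of their 23 calls, 21 were lost without E4BP4-cKO replicate 2 and 9 without E4BP4-cKO replicate 1. Leaving out wild-type replicate 1 lost 15, leaving out wild-type replicate 2 lost 7, and 5 were lost under scaling to total library size, 2 with the replicate block and 1 with limma-voom.

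Over all genes, 1191 were higher and 1013 lower. DESeq2 called 1834 and 1676, a fit without a filter on low counts 2680 and 2237 (28039 genes tested), and scaling to total library size 1033 and 1636. With 1 library left out the counts ran from 246 to 954 and from 74 to 806. For the 77 pathway genes, 13 and 6 became 21 and 7 with DESeq2, 25 and 10 without a filter, and from 1 to 10 and 1 to 5 with 1 library left out. The cause of these shifts was not tested, other than that fewer libraries enter the reduced fits. With the replicate block the counts were 1375 and 1064 over all genes and 14 and 6 over the pathway. Libraries with the same number did not deviate together (r = 0.0578 across 15503 genes, which are not independent replicates), so the numbers were not taken as pairs. Low levels limit Galnt14 and St3gal6, for which 3 counts correspond to between 0.115 and 0.164 CPM.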
